A study of Mus musculus with 6 samples.

Results

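The Frizzled family was described in RNA-seq of the mouse molar epithelium, with its members chosen by name: the 10 genes *Fzd1* to *Fzd10* among the 55487 genes of the deposited table. Each of the 10 had 1 row in the table. The 6 libraries were made from the dental epithelium of mandibular first molars (M1) at postnatal day 2.5 (PN2.5), with 3 control libraries of genotype Wnt10a fl/fl and 3 cKO libraries of genotype K14-Cre;Wnt10a fl/fl. Both groups carried the floxed *Wnt10a* alleles, and the cKO also carried Cre recombinase under the keratin 14 promoter, which is active in epithelial cells. Each library pooled the epithelium of several molars, so that a library is not 1 animal. The study used these mice to ask how epithelial *Wnt10a* shapes Hertwig's epithelial root sheath, the cell layer that guides root formation, and the comparison here asks how the receptors for Wnt ligands stood in the same tissue.

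Frizzled proteins are membrane-spanning receptors that bind secreted Wnt ligands through a cysteine-rich outer domain. With the co-receptors Lrp5 or Lrp6 they stabilise β-catenin, which acts with TCF/LEF factors in the nucleus, and with other partners they orient cells in the plane of a sheet (planar polarity). By sequence the family falls into the subfamilies Fzd3 and Fzd6, Fzd1, Fzd2 and Fzd7, Fzd5 and Fzd8, and Fzd4, Fzd9 and Fzd10. Wnt signals are known to act between and within the epithelium and mesenchyme of the growing tooth.

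The values are TPM, a level scaled by transcript length and to a fixed sum per library. Levels of different genes can be compared as far as that scaling removes the effect of length. Values of a group are given below in the order of replicates 1, 2 and 3. The libraries summed to between 983952 and 993946 TPM. TPM keep no sequencing depth, so counting error is unknown, and precision rests on the 3 libraries of each group. The targeted gene, *Wnt10a*, stood at 56.0, 51.2 and 57.9 TPM in control libraries and at 22.7, 21.8 and 32.2 TPM in cKO libraries, without overlap. Of the dental epithelium markers listed for this work, 10 of 10 were above 1 TPM on average, with *Krt14* between 2190 and 2773 TPM. Markers of other cell types were present too: 10 of 10 mesenchyme markers, 6 of 6 endothelial markers and 3 of 4 immune markers and 2 of 3 Schwann cell markers also had a mean of at least 1 TPM, while 0 of 4 skeletal muscle markers did. The mesenchyme markers, among them *Col1a1* and *Dspp*, summed to between 3569 and 7067 TPM in the control and between 4539 and 5144 TPM in the cKO. In such bulk samples fewer cells of a type and less RNA per cell cannot be told apart, and neither can the cell types that a receptor's RNA came from.

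The promoters of the members on which the comparison turns are shown for context, as 250 bases before to 50 bases after the RefSeq start site in GRCm38. Windows were at hand for 6 of the 10 genes, *Fzd1*, *Fzd4*, *Fzd5*, *Fzd7*, *Fzd9* and *Fzd10*. They were searched on both strands for the core of the TCF/LEF site, CTTTGA, and for the GC box, GGGCGG, the site of Sp and Klf factors. Hits were counted also where they overlapped. The TCF/LEF core was in 1 of the 6 Frizzled windows, that of *Fzd1*, and in 16.0% of the 32851 windows of all genes. The GC box was in the other 5 of the 6, and in 35.7% of all windows. *Fzd7* is shown because it met the criteria for a difference between the genotypes, *Fzd5* for its fold change, *Fzd4* because its groups did not overlap, and *Fzd1* for its TCF/LEF core. Each is written 5′ to 3′ on the strand of the gene, with matches to either motif in capitals. The windows are chr1:59481897-59482196 (forward strand) for *Fzd7*, chr1:64737701-64738000 (reverse strand) for *Fzd5*, chr7:89404116-89404415 (forward strand) for *Fzd4* and chr5:4758167-4758466 (reverse strand) for *Fzd1*.
Fzd7: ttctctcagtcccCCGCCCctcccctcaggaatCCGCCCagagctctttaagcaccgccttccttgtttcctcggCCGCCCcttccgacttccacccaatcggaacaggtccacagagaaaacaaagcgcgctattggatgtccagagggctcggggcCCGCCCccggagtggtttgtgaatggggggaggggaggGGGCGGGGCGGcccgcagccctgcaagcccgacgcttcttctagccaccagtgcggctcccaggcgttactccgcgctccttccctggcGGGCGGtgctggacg
Fzd5: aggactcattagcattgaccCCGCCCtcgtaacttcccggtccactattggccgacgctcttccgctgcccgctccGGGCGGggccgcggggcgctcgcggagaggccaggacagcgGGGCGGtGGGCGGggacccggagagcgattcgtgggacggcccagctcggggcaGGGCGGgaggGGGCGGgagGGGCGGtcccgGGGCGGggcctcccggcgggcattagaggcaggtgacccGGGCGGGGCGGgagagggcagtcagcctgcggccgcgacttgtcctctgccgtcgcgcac
Fzd4: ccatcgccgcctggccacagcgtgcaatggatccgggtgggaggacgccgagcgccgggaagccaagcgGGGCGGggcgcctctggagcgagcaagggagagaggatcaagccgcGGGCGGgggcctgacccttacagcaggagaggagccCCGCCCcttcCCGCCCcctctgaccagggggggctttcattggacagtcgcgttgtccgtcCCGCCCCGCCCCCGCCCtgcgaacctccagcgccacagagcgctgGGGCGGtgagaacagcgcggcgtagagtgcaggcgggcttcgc
Fzd1: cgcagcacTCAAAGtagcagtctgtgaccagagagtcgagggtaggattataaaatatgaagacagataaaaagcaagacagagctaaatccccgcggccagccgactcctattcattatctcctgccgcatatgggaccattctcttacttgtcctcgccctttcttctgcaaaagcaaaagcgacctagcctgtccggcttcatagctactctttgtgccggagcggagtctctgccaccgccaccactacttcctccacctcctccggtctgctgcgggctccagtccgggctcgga
The *Fzd5* window held 10 GC boxes, that of *Fzd4* 8 and that of *Fzd7* 7, whereas *Fzd9* and *Fzd10* had 1 each and *Fzd1* had 0. The TCF/LEF core of *Fzd1* began 242 bases before the start site and lay on the opposite strand, so that it reads TCAAAG in the printed window. The *Fzd1* window had 54.0% G and C and the other 5 had between 66.7% and 78.0%, against a median of 52.7% over all windows. A match describes the letters of the window and does not show that a factor binds there.

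The receptors spanned a wide range of levels, and *Fzd6* was the highest in all 6 libraries, followed by *Fzd7* in all 6. *Fzd6* had a mean of 42.4 TPM over the 6 libraries, *Fzd7* 30.0 TPM, *Fzd2* 22.1 TPM, *Fzd5* 14.9 TPM, *Fzd3* 10.3 TPM and *Fzd8* 6.02 TPM. *Fzd1*, *Fzd10* and *Fzd4* stood lower, at 4.00, 2.65 and 2.02 TPM. *Fzd9* was the lowest in all 6 libraries, with a mean of 0.312 TPM. Neighbours in this order were compared within libraries by their difference in log2(TPM + 1), with an exact two-sided sign-flip permutation test over 6 libraries, whose smallest p is 0.031. *Fzd6* exceeded *Fzd7* by 0.50 ± 0.14 (SD, n = 6) on that scale, *Fzd7* exceeded *Fzd2* by 0.40 ± 0.36 (SD, n = 6) and *Fzd4* exceeded *Fzd9* by 1.20 ± 0.24 (SD, n = 6). Each of these 3 differences had the same sign in 6 of 6 libraries (exact p = 0.031, adjusted p = 0.0938 over the 9 neighbouring pairs). That adjusted p was the smallest of the 9, and *Fzd2* over *Fzd5*, *Fzd8* over *Fzd1* and *Fzd1* over *Fzd10* shared it. The pairs and their direction were set by the means of the same 6 libraries, so these p do not test an order fixed beforehand. The longest transcripts of the members run from 2293 bases in *Fzd9* to 12734 bases in *Fzd3*. Any effect of length or GC content that TPM leave in the order was not tested. The other 6 pairs changed places in 1 or 2 libraries, with exact permutation p between 0.0625 and 0.125 (adjusted p between 0.0938 and 0.125). From *Fzd2* through *Fzd5*, *Fzd3*, *Fzd8*, *Fzd1* and *Fzd10* to *Fzd4*, no gene was therefore set apart from its direct neighbour beyond the spread. Genes further apart in the order were not tested. By value *Fzd2*, between 18.6 and 25.2 TPM, was above *Fzd4*, at most 2.75 TPM, in every library. The 3 pairs above differed from the other 6 pairs in keeping their sign in every library, and the adjusted p did not set them all apart.

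**Figure D1:**
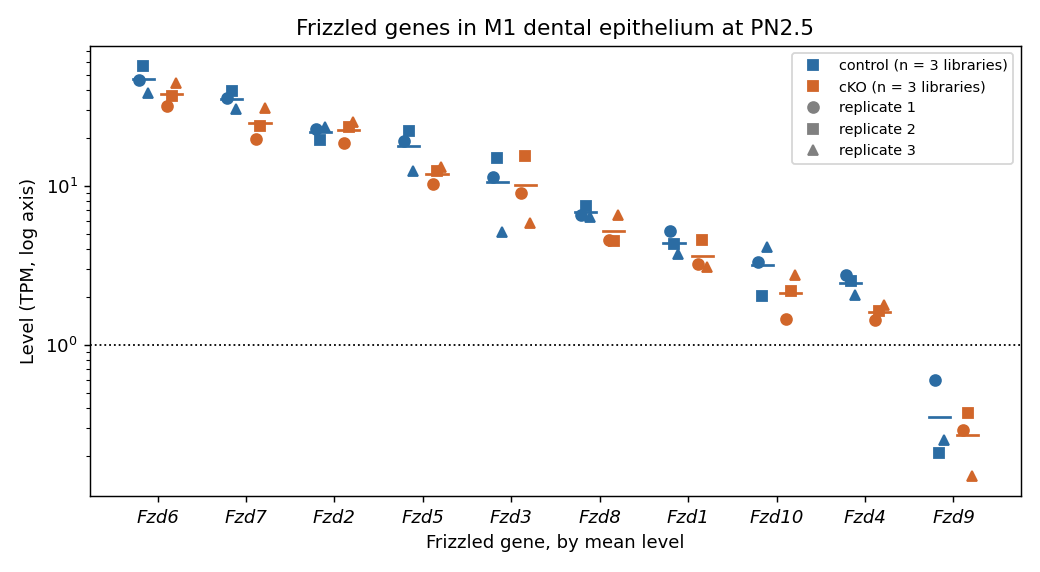
Level of each Frizzled gene in TPM (log axis) in the 3 control and 3 cKO libraries, ordered by the mean over all 6; each point is a library, horizontal strokes are group means and the dotted line marks 1 TPM. *Fzd6* is at the top of every library, between 31.8 and 56.4 TPM, and *Fzd9* is below 1 TPM in every library.

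Of the 10 receptors, 9 had a mean of at least 1 TPM and were tested between the genotypes with limma on log2(TPM + 1), in a fit over 13719 genes. *Fzd7*, a receptor linked to β-catenin signaling and stem cell compartments, was the 1 member that met the criteria used here for a difference, an unadjusted p below 0.05 and a change of more than 20% of the control mean, and it was lower in cKO. Over all tested genes 4.02% met these criteria, of which 38.6% were higher in cKO. That split depended on the scaling: 49.9% were higher after quantile normalization, 48.7% after median-ratio scaling, 13.8% after rescaling to protein-coding genes without the enamel genes *Amelx* and *Ambn*, and 54.0% after a correction for length and GC content of transcripts. After Benjamini-Hochberg adjustment over all genes 0 of the 9 receptors passed 0.05, where 0.0146% of all tested genes did, and 1 of the 9 had an unadjusted limma p below 0.05. The targeted gene *Wnt10a* did not pass it either, at a log2 fold change of -1.10 (limma unadjusted p = 0.000653, adjusted p = 0.747). The groups did not overlap for 1 of the 9, *Fzd4*, which was lower in each cKO library, where 9.64% of all tested genes had no overlap, 6.13% with the cKO libraries below and 3.51% with them above. The log2 fold change (cKO minus control) was negative for 8 of the 9, for 7 of the 9 after quantile normalization, median-ratio scaling or the length and GC correction, and for 9 of the 9 after rescaling to protein-coding genes. Its median over the 9 was -0.34, against -0.07 over all tested genes. At 60.3%, most tested genes were negative.

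Across 13707 genes, which share the 6 libraries and are not independent, longer transcripts had lower log2 fold changes (Spearman correlation -0.43 with the length of the longest transcript). This touches the Frizzled genes, since 9 of the 10 have a longest transcript above the median of tested genes, 3161 bases. After a correction of each library for the length and GC content of transcripts, the median log2 fold change of the 9 receptors was -0.17, against 0.002 over all tested genes. After it 0 of the 9 met the criteria, where 4.52% of tested genes did, and the groups did not overlap for 1 of the 9, *Fzd3*, which was higher in each cKO library, where those of 9.77% of tested genes did not overlap.

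**Figure D2:**
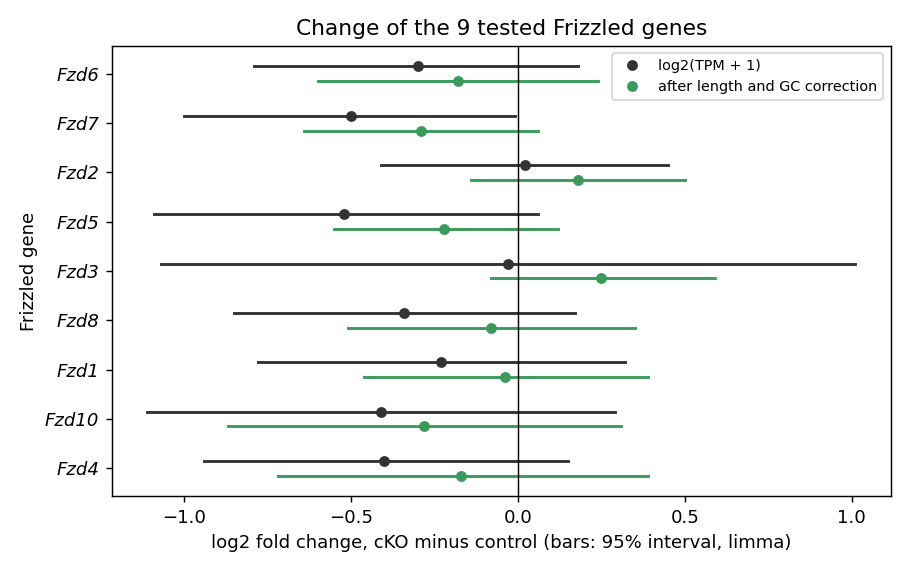
Log2 fold change (cKO minus control) of the 9 tested Frizzled genes from limma, with 95% intervals, on log2(TPM + 1) (black) and after the length and GC correction (green). In black, 8 of 9 points are left of 0 and the interval of *Fzd7* ends at -0.01; in green, 7 of 9 points are left of 0 and every interval includes 0.

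*Fzd6* and *Fzd3* are the receptors best known from planar polarity, where Fzd6 patterns hair follicles and Fzd3 guides axons. *Fzd6* (ENSMUSG00000022297) maps to chromosome 15 of GRCm38 between 39006034 and 39038188 (forward strand), with 7 exons and 4325 bases in its longest transcript. The control libraries had 46.3, 56.4 and 38.3 TPM and the cKO libraries 31.8, 36.9 and 44.5 TPM. cKO replicates 1 and 2 were below every control library and cKO replicate 3 was above the lowest control library, so the groups overlapped. Its mean of 37.7 ± 6.40 TPM (SD, n = 3) in cKO was 80.3% of the 47.0 ± 9.06 TPM (SD, n = 3) in the control, a log2 fold change of -0.30 with a 95% interval from -0.79 to 0.18 (limma unadjusted p = 0.182, adjusted p = 1). It was -0.18 after the length and GC correction (limma unadjusted p = 0.347), -0.17 without control replicate 2 and -0.19 without cKO replicate 1. These values do not show that *Fzd6* was equal in the genotypes.

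*Fzd3* (ENSMUSG00000007989), on chromosome 14 between 65192449 and 65262463 (reverse strand), has the longest transcript of the family, 12734 bases in 7 exons. The control libraries had 11.3, 15.0 and 5.10 TPM and the cKO libraries 9.02, 15.3 and 5.86 TPM. Replicate 2 was the highest and replicate 3 the lowest in both genotypes, and the groups overlapped along most of their range. Its standard deviation of log2(TPM + 1) over the 6 libraries, 0.60, was the largest of the 9 tested receptors, with a ratio of 3.00 between its highest and lowest library. The log2 fold change was -0.03 with a 95% interval from -1.07 to 1.01 (limma unadjusted p = 0.943). After the length and GC correction it was 0.25, with an interval from -0.08 to 0.59 (limma unadjusted p = 0.116).

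**Figure D3:**
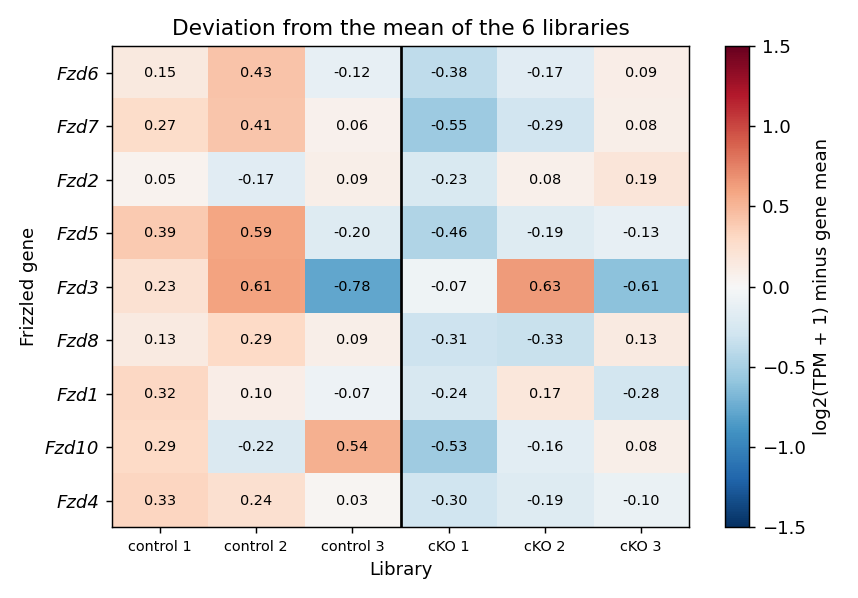
Difference of log2(TPM + 1) from the mean of the 6 libraries for the 9 tested Frizzled genes (rows) in each library (columns), red above and blue below the gene's mean. *Fzd3* is lowest in control replicate 3 and cKO replicate 3, at -0.78 and -0.61, whereas *Fzd4* is above its mean in the 3 control libraries and below it in the 3 cKO libraries.

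*Fzd7*, *Fzd2* and *Fzd1* form a subfamily that can signal through β-catenin, and each is a single exon in its longest transcript. *Fzd7* (ENSMUSG00000041075) maps to chromosome 1 between 59482424 and 59486955 (forward strand), downstream of the RefSeq promoter window printed above. The control libraries had 35.6, 39.4 and 30.6 TPM and the cKO libraries 19.7, 23.8 and 31.1 TPM. cKO replicates 1 and 2 were below every control library, and cKO replicate 3 was slightly above control replicate 3. The cKO mean, 24.9 ± 5.76 TPM (SD, n = 3), was 70.6% of the control mean, 35.2 ± 4.38 TPM (SD, n = 3). The log2 fold change was -0.50 (standard error 0.21, 95% interval -1.0 to -0.01; limma unadjusted p = 0.0475, adjusted p = 1). Refitted with 1 library left out, the call ended without control replicate 1 (-0.49), control replicate 2 (-0.42), cKO replicate 1 (-0.35) or cKO replicate 2 (-0.48), with unadjusted limma p between 0.105 and 0.152. It also ended in the limma fit after the length and GC correction, at -0.29 (unadjusted p = 0.089), after quantile normalization, at -0.44 (unadjusted p = 0.0658), after median-ratio scaling, at -0.44 (unadjusted p = 0.0788), and without the mean-variance trend (unadjusted p = 0.0612).

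*Fzd2* (ENSMUSG00000050288), on chromosome 11 between 102604396 and 102608058 (forward strand), varied least of the tested receptors. It was 22.8, 19.4 and 23.5 TPM in the control and 18.6, 23.3 and 25.2 TPM in the cKO, so the highest and the lowest library were both cKO. The means were 21.9 ± 2.19 TPM (SD, n = 3) and 22.4 ± 3.35 TPM (SD, n = 3). Its log2 fold change was 0.02 with a 95% interval from -0.41 to 0.45 (limma unadjusted p = 0.902). *Fzd1* (ENSMUSG00000044674), on chromosome 5 between 4753839 and 4758035 (reverse strand), was 5.16, 4.31 and 3.71 TPM in the control and 3.20, 4.55 and 3.09 TPM in the cKO. cKO replicate 2 lay within the control range and the groups overlapped. The fold change was -0.23 on the log2 scale with a 95% interval from -0.78 to 0.32 (limma unadjusted p = 0.356). It was -0.04 after the length and GC correction (limma unadjusted p = 0.851), and -0.13 without control replicate 1, -0.15 without cKO replicate 3 and -0.37 without cKO replicate 2. The 3 genes are similar in sequence, and short stretches of 31 bases that a read could share were counted in their longest transcripts. Of these, 1.61% in *Fzd1*, 1.90% in *Fzd2* and 0.777% in *Fzd7* were found in a transcript of another gene, which was in each case another member of the subfamily.

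*Fzd5* and *Fzd8* also signal through β-catenin, and Fzd5 is known from the intestinal epithelium. *Fzd5* (ENSMUSG00000045005), on chromosome 1 between 64730558 and 64737751 (reverse strand), had the most negative log2 fold change of the 9, -0.52 with a 95% interval from -1.09 to 0.06 (limma unadjusted p = 0.0703, adjusted p = 1). The control libraries had 19.1, 22.1 and 12.4 TPM and the cKO libraries 10.2, 12.4 and 13.1 TPM. Control replicate 3 was as low as the cKO libraries, while control replicates 1 and 2 were above all of them. Without control replicate 3 the log2 fold change was -0.75 and met the criteria (limma unadjusted p = 0.00983), as it did after median-ratio scaling, at -0.45 (limma unadjusted p = 0.0448), and after rescaling to protein-coding genes, at -0.58 (limma unadjusted p = 0.0385). After the length and GC correction it was -0.22 (limma unadjusted p = 0.167). Of the 31-base stretches of its longest transcript 17.3% were shared with other genes, nearly all with *Gm38058*, which is annotated on the opposite strand of the same locus and stood at or below 0.27 TPM in every library. *Fzd6* shared 3% of its stretches, nearly all with *Gm26704* on the opposite strand, which stood at or below 0.48 TPM. Whether counting used strand is not given, so reads of such pairs cannot be told apart.

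*Fzd8* (ENSMUSG00000036904), a single exon on chromosome 18, was 6.57, 7.48 and 6.38 TPM in the control and 4.57, 4.50 and 6.59 TPM in the cKO. As for *Fzd7*, cKO replicates 1 and 2 were below every control library and cKO replicate 3 was within the control range. The control mean was 6.81 ± 0.588 TPM (SD, n = 3) and the cKO mean 5.22 ± 1.19 TPM (SD, n = 3). This gave a log2 fold change of -0.34 with a 95% interval from -0.85 to 0.17 (limma unadjusted p = 0.156). After the length and GC correction it was -0.08 (limma unadjusted p = 0.676).

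*Fzd4* is the receptor of Norrin in blood vessels and is known above all from endothelial cells. The gene (ENSMUSG00000049791) maps to chromosome 7 between 89404355 and 89413134 (forward strand). The control libraries had 2.75, 2.52 and 2.05 TPM and the cKO libraries 1.43, 1.62 and 1.78 TPM, so the groups did not overlap (exact two-sided permutation p = 0.1, the lowest possible with 3 libraries in each group). The cKO mean, 1.61 ± 0.175 TPM (SD, n = 3), was 66.0% of the control mean, 2.44 ± 0.357 TPM (SD, n = 3). On the log2(TPM + 1) scale, which understates the change of low genes, the fold change was -0.40 with a 95% interval from -0.94 to 0.15 (limma unadjusted p = 0.13). After the length and GC correction it was -0.17 and the groups overlapped. Of the 6 endothelial markers 2 met the criteria, both lower in cKO, where 2.47% of all tested genes did so in that direction, and 4 did not. The log2 fold change was negative for 6 of the 6, where it was for 60.3% of all tested genes. It ran from -0.77 for *Cdh5* to -0.10 for *Emcn* (limma unadjusted p = 0.565 for *Emcn*). Its median was -0.55, and -0.36 after the length and GC correction. The 6 (*Pecam1*, *Cdh5*, *Kdr*, *Tie1*, *Tek* and *Emcn*) were above 1 TPM in every library and summed to between 69.3 and 110 TPM in the control and between 53.8 and 79.4 TPM in the cKO, so the sums overlapped. *Cdh5*, the endothelial cadherin, and *Tek*, an angiopoietin receptor, were lower in cKO under the same criteria, with log2 fold changes of -0.77 (limma unadjusted p = 0.0288) and -0.54 (limma unadjusted p = 0.0458). The *Cdh5* call ended without control replicate 1 (-0.59), control replicate 3 (-0.70), cKO replicate 1 (-0.60) or cKO replicate 2 (-0.75), and the *Tek* call ended without control replicate 1 (-0.44), control replicate 2 (-0.50), cKO replicate 1 (-0.51), cKO replicate 2 (-0.54) or cKO replicate 3 (-0.58). Both calls ended after the length and GC correction, *Cdh5* at -0.61 (limma unadjusted p = 0.0624) and *Tek* at -0.40 (limma unadjusted p = 0.0617), and after quantile normalization. The *Cdh5* call also ended after median-ratio scaling and the *Tek* call without the filter on low values. The part of endothelial RNA in the lower *Fzd4* level was not tested.

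*Fzd10* and *Fzd9* complete this subfamily. *Fzd10* (ENSMUSG00000081683), on chromosome 5 between 128600844 and 128604093 (forward strand), was 3.34, 2.04 and 4.13 TPM in the control and 1.45, 2.17 and 2.75 TPM in the cKO. Control replicate 2 lay among the cKO libraries, so the groups overlapped. On the log2 scale the fold change was -0.41 with a 95% interval from -1.11 to 0.29 (limma unadjusted p = 0.214). It was -0.62 without control replicate 2, and -0.24 without control replicate 3 or without cKO replicate 1. *Fzd9* (ENSMUSG00000049551), also on chromosome 5, was 0.60, 0.21 and 0.25 TPM in the control and 0.29, 0.37 and 0.15 TPM in the cKO, and was not tested for its low level. In a fit without the filter on low values, over 28254 genes, its log2 fold change was -0.08 with a 95% interval from -0.41 to 0.25 (limma unadjusted p = 0.559).

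The 10 receptors together had 154, 169 and 126 TPM in control libraries and 100, 125 and 134 TPM in cKO libraries. The summed level in cKO replicate 3 lay within the control range, while cKO replicates 1 and 2 were below every control library. As a share of that sum, which does not move with the scaling of a library, *Fzd6*, *Fzd7*, *Fzd2* and *Fzd5* made up 80.6%, 81.3% and 82.9% in the control and 80.1%, 77.2% and 84.9% in the cKO. A share can still move with the trend by transcript length given above, and shares were not computed after the length and GC correction. *Fzd6* held 31.3% ± 1.83 (SD, n = 3) of the control sum and 31.5% ± 1.86 (SD, n = 3) of the cKO sum.

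*Fzd7* was 23.2%, 23.3% and 24.2% of the sum in the control and 19.6%, 19.1% and 23.2% in the cKO, and *Fzd2* was 14.8%, 11.5% and 18.6% in the control and 18.6%, 18.6% and 18.8% in the cKO. The difference, cKO minus control, was -2.96 percentage points for *Fzd7* and 3.69 percentage points for *Fzd2*, and neither pair of groups overlapped (exact two-sided permutation p = 0.1 for each, again the lowest possible). The nearest libraries of the 2 groups were 0.01 percentage points apart for *Fzd7* and less than that for *Fzd2*, a distance that the rounding of the deposited values can close. Without control replicate 2 the *Fzd2* difference was 1.95 percentage points. *Fzd4* held a small share that was lower in every cKO library, 1.43%, 1.30% and 1.33% against 1.79%, 1.49% and 1.62% (exact two-sided permutation test, p = 0.1). The other 7 shares overlapped between the groups.

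**Figure D4:**
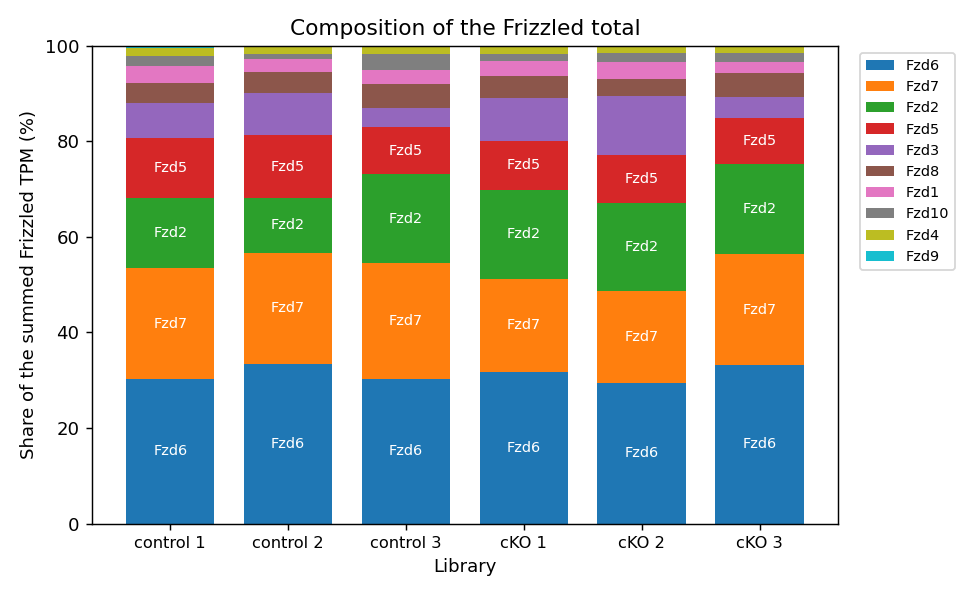
Share of each Frizzled gene in the summed TPM of the 10 (percent) in each library, stacked from the highest mean level at the bottom. *Fzd6* takes between 29.5% and 33.4% of every bar, and *Fzd7* takes between 23.2% and 24.2% in the control and between 19.1% and 23.2% in the cKO.

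Patterns across the 6 libraries were compared by the root-mean-square difference in log2(TPM + 1) after each gene's own mean was removed. For *Fzd3* the closest of all tested genes was *Zfp120*, at a difference of 0.026, followed by *Epha7*, an ephrin receptor, and *Kansl1l*. For *Fzd5* the closest were *Fam168a*, *Serinc5* and *Pogk*, at 0.043 to 0.049. For *Fzd10* they were *Pkm*, *Alas2* and *Pde2a*, at 0.076 to 0.092. These 3 receptors were taken because they varied most, with standard deviations of 0.60, 0.40 and 0.38 on the log2 scale, and the distances describe 6 libraries and nothing beyond them.

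Among the genes that work with Frizzled receptors, 65 were listed in 10 groups and 51 were tested. Of the 51, 4 met the same criteria, all lower in cKO (2.47% of all tested genes did so in that direction), and 0 were higher (1.55% of all tested genes). The 4 were *Wnt10a* itself, *Wnt5a*, *Adgra2* and *Apcdd1*, and 1 of them, *Wnt10a*, also met the criteria after the length and GC correction. The calls of *Wnt5a*, *Adgra2* and *Apcdd1* also ended after quantile normalization and after median-ratio scaling, and that of *Adgra2* without the filter on low values. The median log2 fold change of the 51 was -0.23, and -0.04 after the correction.

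Of the 19 ligands 12 were tested, with a median of -0.22, or -0.12 after the length and GC correction. *Wnt6*, an epithelial ligand of the tooth, had the highest mean, 225 TPM. *Wnt5a*, a ligand known for signals outside the β-catenin route, was 36.1, 36.3 and 27.8 TPM in the control and 20.6, 19.8 and 28.6 TPM in the cKO, with overlap between the groups and a log2 fold change of -0.53 (limma unadjusted p = 0.0367). Its call ended without control replicate 1 (-0.47), control replicate 2 (-0.46), cKO replicate 1 (-0.46) or cKO replicate 2 (-0.43). The Wnt secretion genes *Wls* and *Porcn* had a median of 0.03, and *Wls*, the carrier of Wnt proteins to the cell surface, was at 226 TPM on average.

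Of the 6 co-receptors 0 met the criteria, and their median was -0.35, or -0.04 after the length and GC correction. *Ptk7*, the highest of them at 117 TPM, is a co-receptor of planar polarity, and *Lrp5* and *Lrp6* carry the β-catenin signal. *Adgra2*, an endothelial co-receptor for Wnt7 ligands, was 6.99, 3.97 and 4.79 TPM in the control and 2.39, 3.44 and 3.27 TPM in the cKO, without overlap (log2 fold change -0.61, limma unadjusted p = 0.0495). After the correction it was -0.33 (limma unadjusted p = 0.168). The *Adgra2* call ended without control replicate 1 (-0.42), control replicate 3 (-0.65), cKO replicate 1 (-0.49), cKO replicate 2 (-0.69) or cKO replicate 3 (-0.66). Of the other 2 tested genes of that group, *Reck* and *Tspan12*, 0 met the criteria.

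Frizzled receptors are cleared from the surface by the ligases Znrf3 and Rnf43, which R-spondins and their Lgr receptors hold back. Of the 9 genes listed for this turnover 6 were tested and 0 met the criteria. Their median was -0.25, or -0.03 after the length and GC correction, and *Lgr4* had the highest mean, 19.3 TPM. *Shisa2*, *Shisa3* and *Apcdd1* were listed together as inhibitors of Wnt signaling. Of these 3, 2 were tested and 1 met the criteria, *Apcdd1*, while *Shisa2* was at -0.09 (limma unadjusted p = 0.758). *Apcdd1*, a membrane inhibitor of Wnt signaling and itself a known β-catenin target, had 55.2, 48.4 and 45.0 TPM in control libraries and 24.5, 19.2 and 44.9 TPM in cKO libraries. The groups did not overlap, but cKO replicate 3 was close to the lowest control library. The log2 fold change was -0.81 (standard error 0.30, limma unadjusted p = 0.0307), and -0.48 after the length and GC correction (limma unadjusted p = 0.258). Its call ended without control replicate 1 (-0.73), control replicate 2 (-0.82), cKO replicate 1 (-0.72) or cKO replicate 2 (-0.56).

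Of the 3 Dishevelled genes, which relay the signal inside the cell, 0 met the criteria. The median was -0.28, or -0.05 after the length and GC correction. *Dvl3* was the highest, at 22.8 TPM. Of the 6 tested planar polarity genes 0 met the criteria, with a median of -0.42 and of -0.09 after the correction, and *Celsr1*, a polarity cadherin, was the highest at 142 TPM. Of the 6 tested genes listed as β-catenin targets 0 met the criteria, with a median of -0.05. *Apcdd1*, a target that met the criteria, is counted with *Shisa2* and *Shisa3* and not in this list. After the length and GC correction *Nkd1*, a feedback inhibitor of the pathway, met them at 0.44 (limma unadjusted p = 0.0156), from 12.2, 11.1 and 9.32 TPM in the control and 12.5, 15.3 and 11.98 TPM in the cKO. *Axin2*, the most widely used of these targets, was 18.3, 25.6 and 18.6 TPM in the control and 16.0, 12.6 and 17.8 TPM in the cKO, without overlap. Its log2 fold change was -0.40 (limma unadjusted p = 0.0985), and -0.21 after the length and GC correction (limma unadjusted p = 0.315). Of the 5 secreted Frizzled-related proteins, soluble relatives of the receptors that bind Wnt ligands, 0 met the criteria. Their median was 0.24, or 0.25 after the length and GC correction, and *Sfrp5* was the highest at 10.1 TPM.

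**Figure D5:**
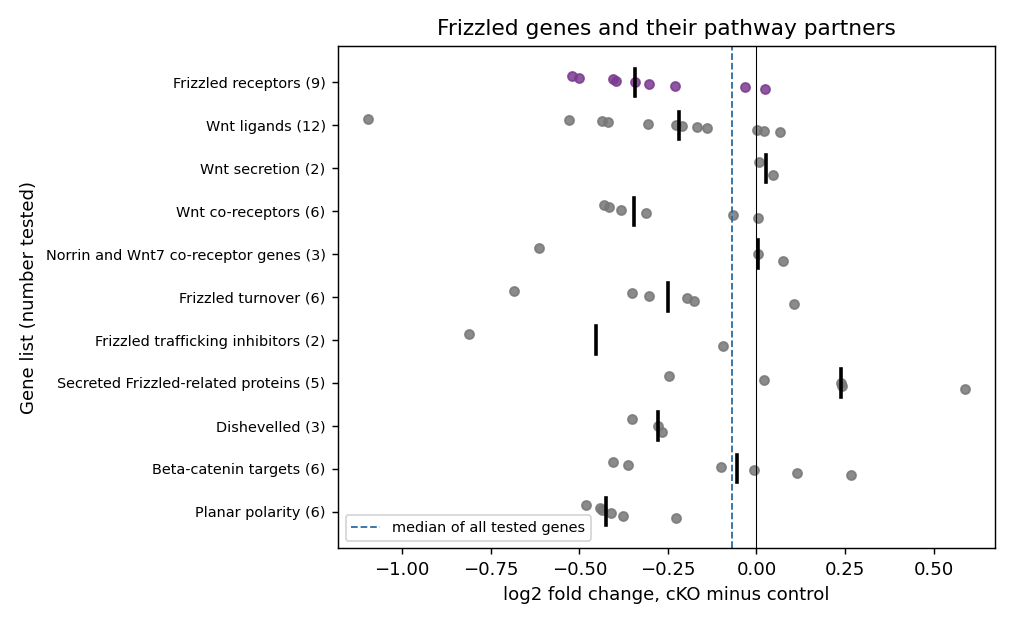
Log2 fold change (cKO minus control, on log2(TPM + 1)) of each tested gene in the Frizzled list (purple) and in 10 lists of pathway partners (grey), with the list's median as a black stroke and the median of all tested genes, -0.07, as a dashed line. The Frizzled median is -0.34 and that of the co-receptors -0.35, whereas that of the secreted Frizzled-related proteins is 0.24. After the length and GC correction the first and second are -0.17 and -0.04. The list labeled as trafficking inhibitors holds *Shisa2* and *Apcdd1*, and *Apcdd1* is known as a membrane inhibitor of Wnt signaling.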

How the data were processed

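RNA was sequenced from M1 dental epithelium at PN2.5 in 3 control and 3 cKO libraries, each a pool of molars whose number differs between the design text and the methods. Per the methods, the authors used SeqPrep and Sickle for trimming, HISAT2 for alignment and RSEM for gene abundance, while the submitters' processing notes name HISAT2 and StringTie. The methods name FPKM, but the values the authors deposited sum to nearly the same total in each library and were read as TPM. Genome build, annotation and whether counting used strand are not given in the sources used here.

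Groups and replicate numbers came from the sample titles. The titles call the libraries of a group biological replicates. Which animals or litters were pooled for each is not given in the sources used here, so p-values measure the spread between these pools. Genes averaging 1 TPM or more entered the test on log2(TPM + 1) with limma 3.58.1 in R 4.3.3 (lmFit, eBayes with trend), with Benjamini-Hochberg adjustment over 13719 genes. Calls used the criteria of the study's methods, an unadjusted p below 0.05 and a difference above 20% of the control mean. Confidence intervals are 95%. The length and GC correction removed a natural spline fit (4 degrees of freedom each) from the deviation of each library over 13707 genes. The steps were tested on simulated data. Single values were compared with scipy 1.17.1 by exact permutation.

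Positions, transcript lengths and GC content are from GENCODE M21 (GRCm38), which held 99.4% of the gene identifiers, and promoters are from RefSeq. Named beside the receptors are listed genes with an unadjusted limma p below 0.05 and no overlap between groups, the gene of each list with the highest mean, the targeted gene, and the 3 genes closest in pattern to the 3 most variable receptors. *Wnt5a*, *Nkd1*, *Shisa2*, *Shisa3*, the other marker genes, *Sfrp2*, *Sfrp4*, *Rspo4* and the genes overlapping receptors were named after their values were seen. The members and lists were chosen with earlier results of these data known. Alternatives were another pseudocount, no filter, 3 other scalings, the replicate block, the length and GC correction, no trend, and each library left out.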

Additional observations from a re-analysis of the deposited data

How the results depend on the processing

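Under 15 alternatives 0 of the tested receptors passed an adjusted p of 0.05. The count that met the criteria was 0 after quantile normalization, after the length and GC correction, with the replicate block and that correction together, and without the mean-variance trend, 2 (*Fzd7* and *Fzd5*) after rescaling to protein-coding genes and with the replicate block alone, and between 0 and 2 with 1 library left out. *Fzd2* was at -0.02 after rescaling and between -0.06 and 0.14 with 1 library left out. *Fzd3* was at 0.07 after quantile normalization, 0.03 after median-ratio scaling and 0.25 after the length and GC correction with and without the block, and between -0.43 and 0.27 with 1 library left out. *Fzd7* ranged from -0.67 to -0.29 over all alternatives, *Fzd1*, *Fzd4*, *Fzd6*, *Fzd8* and *Fzd10* were negative and without a call in all 15, and the cause of these changes was not tested. Over all genes 552 met the criteria, against 940 without the filter, 1315 with the block, 1110 with the block and the correction, and between 195 (without cKO replicate 1) and 1152 (without control replicate 3) with 1 library left out. The methods speak of pairs of replicates and the deposited columns carry the numbers 1, 3 and 4 in both groups, but no source used here says what a number marks. The deviations of same-numbered libraries had correlations of -0.08, 0.29 and 0.40 for replicates 1, 2 and 3, and control replicate 1 correlated best with cKO replicate 2, so not every library correlated best with its own number, and the pairing was not taken as shown. Leaving out libraries was not run for the order of levels, since the smallest exact p over 5 libraries is 0.0625. TPM keep no depth, so *Fzd9* and other low levels have no known counting error.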

Other observations

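Some genes that tune Frizzled receptors varied far more between libraries than the receptors did. *Sfrp4*, a secreted Frizzled-related protein, had 8.30, 2.46 and 0.09 TPM in the control libraries. In the cKO it had 3.78 TPM in replicate 1 and 23.9 TPM in replicate 2, and was listed at 0 in replicate 3. *Sfrp2* had 8.93, 2.22 and 2.10 TPM in the control and 3.90, 13.2 and 0.49 TPM in the cKO, so that the highest and the lowest library were both cKO. *Rspo4*, an R-spondin, had 4.94 TPM in control replicate 1 and between 0.15 and 0.37 TPM in the other 5 libraries.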
